A study of Rattus norvegicus with 11 samples.

Results

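This report describes 7 genes for proteins that type II cells of the lung secrete in host defence or carry on their apical surface: Lyz2, Lcn2, Defb4, Chia, Scgb1a1, Muc1 and Alpl. All probe sets annotated to exactly 1 of these genes were taken. That gave 8 probe sets, 2 of them for Alpl, of 8740 probe sets measured. Total RNA of rat lung alveolar epithelial cells had been hybridised to 11 Affymetrix expression arrays: 4 of freshly isolated type I (TI) cells on day 0, 3 of type II (TII) cells cultured until day 7 and 4 of freshly isolated TII cells on day 0. The sample descriptions and titles gave these groups, while the source field read TI cells for all arrays. The sources used here gave neither strain, age nor culture conditions, nor whether replicate arrays stand for different animals, so p-values measure only the spread between these arrays, which may be technical. Values are signals on a log2 scale as the authors deposited them, with no detection call. The genes were chosen by their signal on these same arrays, high in fresh TII cells, so their differences from fresh TII cells are given as a description. No p-value is given for them, and the counts past the threshold there support nothing.

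The alveolus is lined by flat TI cells, across which gas exchange takes place, and by cuboidal TII cells, which make surfactant and can give rise to TI cells. TII cells also secrete proteins that act on microbes in the lining fluid, and their apical membrane carries mucins and ectoenzymes. In culture on plastic or other flat supports, TII cells are known to lose their secretory character and to take up features of TI cells. Lysozyme is also a product of macrophages, lipocalin 2 of neutrophils and Scgb1a1 of the club cells of the airways, so markers of those cells are given beside the genes concerned.

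The labels were checked against markers first. Of 8 measured TI markers, all 8 were called higher by limma in fresh TI than in fresh TII cells, against 33.0% of all genes (21.2% were lower). Podoplanin (Pdpn), a surface glycoprotein of TI cells, averaged 10.14 ± 0.09 in fresh TI, 9.35 ± 0.13 in cultured TII and 5.66 ± 0.07 in fresh TII cells (log2, SD, n = 4, 3 and 4). The mean of the 8 TI markers lay at 9.1 to 9.39 on fresh TI, 7.42 to 7.91 on cultured TII and 6.47 to 6.57 on fresh TII arrays. Of them 6 were called higher in cultured than in fresh TII cells and 0 lower, against 20.5% and 14.0% of all genes. The caveolin gene Cav1 was not called, at 5.86 ± 0.28 in cultured TII and 5.92 ± 0.14 in fresh TII cells. The mean log2 signal of 8 TII markers lay at 8.16 to 8.96 on fresh TI, at 6.74 to 7.19 on cultured TII and at 10.24 to 10.4 on fresh TII arrays. TII transcripts were thus measured on every fresh TI array, and the surfactant protein C gene Sftpc stood there at 10.73 to 12.51. In such bulk RNA, fewer cells of a type and less RNA per cell cannot be told apart. For the beta-actin control, whose probe sets at the 3' and 5' ends bear on how complete the transcripts are, the 3' signal exceeded the 5' signal by 0.21 to 0.42 on fresh TI, -0.33 to -0.08 on cultured TII and 0.32 to 0.43 on fresh TII arrays. For the GAPDH control the excess was 0.41 to 0.69 on fresh TI, 0.3 to 0.45 on cultured TII and 0.47 to 0.57 on fresh TII arrays. Cultured and fresh TI arrays thus overlapped for GAPDH, while cultured arrays lay below all fresh TII arrays for both controls. The part of transcript completeness in the differences of cultured cells was not tested.

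Promoter sequence of 300 bases, from 250 before to 50 after the annotated start, was found for 6 of the 7 genes in RefSeq's GRCr8 assembly. The 4 promoters below are shown because their genes have separate patterns across the cells and because each holds the C/EBP half-site pair TTGCNNAA, searched on both strands. C/EBP factors are regulators of TII cell and neutrophil genes. Capitals mark all matches to the motifs searched: that pair, the NKX2-1 core CTCAAG, the FOXA core TGTTTNC, the STAT palindrome TTCNNNGAA and the NF-kB consensus, all on both strands, and the TATA box TATAAA on the gene's strand. No marked matches overlapped in these windows.
Lyz2, chr7:54797962-54798261, minus strand: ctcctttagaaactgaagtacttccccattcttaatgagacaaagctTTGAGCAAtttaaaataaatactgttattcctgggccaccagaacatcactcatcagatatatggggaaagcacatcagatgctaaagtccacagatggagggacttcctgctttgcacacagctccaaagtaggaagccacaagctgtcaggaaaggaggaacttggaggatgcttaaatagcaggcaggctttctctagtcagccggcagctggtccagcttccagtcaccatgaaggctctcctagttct
Lcn2, chr3:36081731-36082030, minus strand: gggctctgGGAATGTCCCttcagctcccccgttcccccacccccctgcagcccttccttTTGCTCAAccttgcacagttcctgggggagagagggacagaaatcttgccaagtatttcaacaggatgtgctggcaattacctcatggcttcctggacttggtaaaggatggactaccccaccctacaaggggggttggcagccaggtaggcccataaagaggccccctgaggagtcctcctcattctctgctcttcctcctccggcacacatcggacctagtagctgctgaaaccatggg
Chia, chr2:196302437-196302736, plus strand: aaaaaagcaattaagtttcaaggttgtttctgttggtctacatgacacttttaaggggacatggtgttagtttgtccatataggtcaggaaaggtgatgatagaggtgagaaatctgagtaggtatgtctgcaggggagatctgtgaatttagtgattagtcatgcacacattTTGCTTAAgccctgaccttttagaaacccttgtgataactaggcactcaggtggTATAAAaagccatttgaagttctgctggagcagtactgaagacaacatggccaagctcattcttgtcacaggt
Scgb1a1, chr1:215409637-215409936, minus strand: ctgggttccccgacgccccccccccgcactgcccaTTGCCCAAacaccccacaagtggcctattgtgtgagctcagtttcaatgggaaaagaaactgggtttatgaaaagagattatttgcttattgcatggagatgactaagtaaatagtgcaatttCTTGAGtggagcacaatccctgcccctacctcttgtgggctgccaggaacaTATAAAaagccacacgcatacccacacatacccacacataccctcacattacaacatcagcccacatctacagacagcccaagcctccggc

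The C/EBP pair stood 203 bases before the start in Lyz2, 191 in Lcn2, 77 in Chia and 215 in Scgb1a1. It occurred in 4 of the 6 promoters, against 10.6% of 33469 promoter windows of the same length. The NF-kB consensus lay 242 bases before the start in Lcn2 alone among the 6, against 7.51% of all windows. The NKX2-1 core was present in Scgb1a1, 92 bases before the start, and in Muc1, 19 bases after it, against 15.8% of all windows. A TATA box was found in Chia, Scgb1a1 and Muc1, against 8.8% of all windows. No window of the 6 held the FOXA core or the STAT palindrome, which 21.1% and 8.87% of all windows held. The Alpl window held none of these motifs, and its GC content was 76.3%, against 41.0% for Chia. These matches are descriptions of the letters and not of factor binding.

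Lyz2 (Entrez gene 25211, probe set rc_AA892775_at) encodes lysozyme, which cleaves the peptidoglycan of bacterial walls. Its signal was 12.07, 12.71, 12.49 and 10.77 on fresh TI arrays 1 to 4, 9.97, 10.49 and 10.75 on cultured TII arrays 1 to 3 and 12.85, 12.98, 12.72 and 12.88 on fresh TII arrays 1 to 4. Fresh TI arrays 1 to 3 thus stood close to fresh TII cells, and fresh TI array 4 lay just above the cultured arrays. The mean in fresh TI cells differed from that in fresh TII cells by -0.85 ± 0.33 (log2, SE of the fit, n = 4 each), a 1.8-fold lower signal, and by -0.43 without fresh TI array 4. The nearest arrays of those groups were 12.71 in fresh TI and 12.72 in fresh TII cells. Cultured TII cells stood -2.45 ± 0.35 from fresh TII cells, 5.48-fold lower. The RefSeq gene table lists a neighbouring lysozyme gene, Lyc2, and whether its transcripts add to this signal was not tested.

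Lcn2 (170496, rc_AA946503_at) encodes lipocalin 2, which binds bacterial iron carriers. The signal was 5.53, 5.81, 6.36 and 5.15 on the fresh TI arrays, 5.83, 7.40 and 8.91 on the cultured TII arrays and 10.37, 9.91, 9.68 and 9.94 on the fresh TII arrays. The cultured arrays were widely spread, with an SD of 1.54 (n = 3), the highest of any group of the 8 probe sets. Fresh TI cells stood -4.26 ± 0.48 from fresh TII cells, 19.2-fold lower, and cultured TII cells -2.6 ± 0.52, or 6.05-fold lower. Without cultured array 1 the difference of cultured from fresh TII cells was -1.82, and without cultured array 3 it was -3.36.

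Defb4 (64389, AF068861_s_at) encodes a beta-defensin, a small cationic peptide that kills bacteria. The suffix of its probe set marks probes that may match more than 1 transcript. It gave 8.44, 9.21, 9.48 and 7.25 on the fresh TI arrays, 4.46, 4.38 and 4.25 on the cultured TII arrays and 12.02, 11.89, 11.64 and 11.75 on the fresh TII arrays. No groups overlapped, and fresh TI cells lay between the others. The difference from fresh TII cells was -3.23 ± 0.36 in fresh TI cells, 9.37-fold, and -7.46 ± 0.39 in cultured TII cells, 176-fold, the widest of the 8 probe sets. The cultured signals were low, and without detection calls it cannot be read whether they stand above background. The fold in cultured cells may thus be understated.

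Chia (113901, rc_AI639227_at) encodes acidic mammalian chitinase, which cleaves the chitin of fungi and arthropods. Fresh TI arrays gave 4.92, 4.88, 4.78 and 4.58, cultured TII arrays 4.23, 4.09 and 4.39, and fresh TII arrays 9.79, 10.02, 9.16 and 9.64. Both other groups lay far below fresh TII cells, at -4.86 ± 0.15 in fresh TI and -5.42 ± 0.17 in cultured TII cells. These are 29.1-fold and 42.7-fold differences. Whether such low signals stand above background cannot be read from values without detection calls, so the folds may be understated.

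Scgb1a1 (25575, rc_AI009524_at) encodes the secretoglobin of airway club cells. The arrays gave 7.73, 7.81, 7.89 and 7.42 in fresh TI cells, 8.63, 8.52 and 8.06 in cultured TII cells and 11.15, 11.07, 10.84 and 11.02 in fresh TII cells. Here fresh TI cells, not cultured TII cells, were the lowest group. Fresh TI cells stood -3.31 ± 0.13 from fresh TII cells, 9.93-fold lower, and cultured TII cells -2.62 ± 0.14, or 6.14-fold lower. The club cell cytochrome Cyp2f4 differed from fresh TII cells by -4.07 ± 0.09 in fresh TI and by -4.39 ± 0.1 in cultured TII cells. Of 9 measured markers of airway secretory cells, 4 were called lower and 4 higher in fresh TI cells, against 21.2% and 33.0% of all genes. The higher ones were Cyp4b1 at 0.48 ± 0.18, Aldh3a1 at 0.43 ± 0.09, Muc5ac at 0.34 ± 0.07 and Reg3g at 0.33 ± 0.1. In cultured cells 5 were called lower and 0 higher, against 14.0% and 20.5% of all genes. The unadjusted p gave the same counts of the 9 in both comparisons. The list's mean log2 signal was 6.19 to 6.4 on fresh TI, 5.42 to 5.72 on cultured TII and 7.3 to 7.43 on fresh TII arrays. The part of airway cells in the Scgb1a1 signal was not tested.

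Muc1 (24571, AF007554_at) encodes a mucin anchored in the apical membrane. The signal was 6.32, 6.98, 6.87 and 6.03 on the fresh TI arrays, 6.48, 5.84 and 5.42 on the cultured TII arrays and 10.67, 10.56, 10.65 and 10.44 on the fresh TII arrays. Fresh TI and cultured TII arrays overlapped, and both lay far below fresh TII. The differences from fresh TII cells were -4.03 ± 0.23 in fresh TI cells, 16.3-fold, and -4.67 ± 0.25 in cultured TII cells, 25.4-fold.

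Alpl (25586) encodes alkaline phosphatase, an enzyme held on the apical surface by a lipid anchor and long used to stain TII cells. Probe set J03572_i_at gave 9.72, 9.87, 9.94 and 9.61 in fresh TI cells, 8.39, 8.45 and 8.32 in cultured TII cells and 12.28, 12.21, 12.46 and 12.20 in fresh TII cells. Probe set X16038exon_s_at gave 7.03, 6.94, 6.98 and 7.03 in fresh TI cells, 6.13, 6.20 and 6.11 in cultured TII cells and 9.10, 8.87, 9.19 and 8.82 in fresh TII cells. Both put fresh TI cells between the other groups, with no overlap and little spread. The first stood -2.5 ± 0.09 from fresh TII cells in fresh TI cells and -3.9 ± 0.09 in cultured TII cells, and the second -2.0 ± 0.08 and -2.85 ± 0.09 in the same order of groups.

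**Figure D1:**
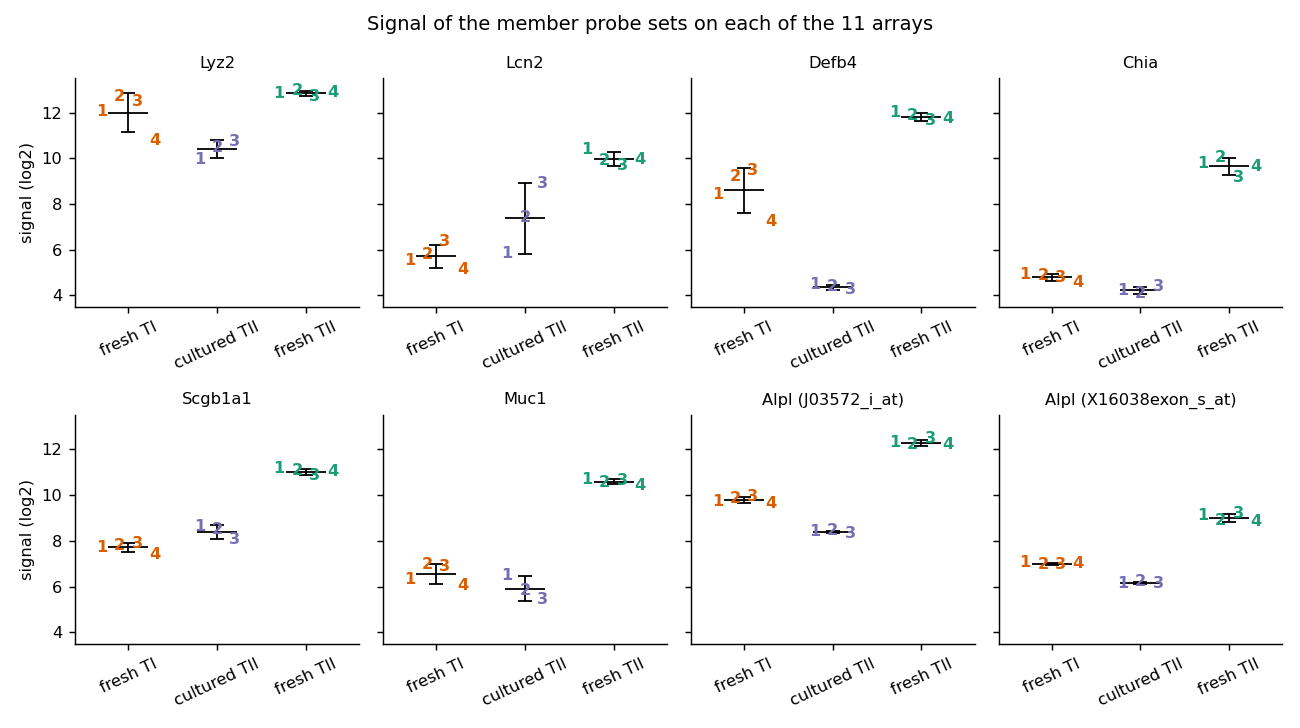
Signal (log2) of the 8 probe sets on each array, by group. Each digit is an array, named by its replicate number, and the bars give the group mean and SD. Fresh TII arrays stand above both other groups in every panel, and Lcn2 in cultured TII cells has the widest spread, from 5.83 to 8.91.

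As the choice of genes fixed, all 8 probe sets lay lower in fresh TI than in fresh TII cells and past the threshold of the fit, as did 20.4% of all probe sets, and none of their arrays overlapped, as for 19.5% of all probe sets in that direction. All 8 also lay lower in cultured than in fresh TII cells and past it, against 14.3% of all probe sets, again with no overlap (20.6%). Since the genes were chosen for this, the counts say nothing further. The median difference of the 8 was -3.27 in fresh TI and -3.38 in cultured TII cells, against 0.12 and -0.01 for all probe sets. Both comparisons share the 4 fresh TII arrays.

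The comparison of fresh TI with cultured TII cells was not the one for which the genes were chosen, although it is the difference of the other comparisons and is not independent of them. It sets apart genes whose signal was lower in the one group or the other. By limma, 6 of the 8 probe sets were higher in fresh TI cells and 2 lower, against 35.7% and 24.2% of all probe sets, so most probe sets differed here. The arrays did not overlap for 5 higher and 1 lower, against 34.1% and 23.2% of all probe sets. The median difference was 0.74 for the 8 and 0.13 for all probe sets.

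Defb4 was higher in fresh TI than in cultured TII cells by 4.23 ± 0.39 (log2, SE), 18.8-fold (adjusted p = 1.94e-06), and lowest on all 3 cultured arrays. Lyz2 was higher by 1.61 ± 0.35, 3.04-fold (adjusted p = 0.00207), although fresh TI array 4, at 10.77, nearly met cultured array 3, at 10.75. Alpl was higher by 1.4 ± 0.09 on J03572_i_at (adjusted p = 1.21e-07) and by 0.85 ± 0.09 on X16038exon_s_at (adjusted p = 8.1e-06). Chia was higher by 0.55 ± 0.17 (adjusted p = 0.0125), and without cultured array 2 that call ended, at 0.48 (adjusted p = 0.0533). Both Chia means, 4.79 in fresh TI and 4.24 in cultured TII cells, were low, as was the cultured Defb4 mean of 4.36. Without detection calls it cannot be read whether these stand above background. Muc1 was higher by 0.64 ± 0.25 (95% interval 0.1 to 1.17, adjusted p = 0.0399) with overlapping arrays. Its call ended in 9 of 17 alternatives, among them median centring of the arrays and leaving out fresh TI array 2 or 3, cultured array 2 or 3, or any of fresh TII arrays 1 to 3, at 0.39 to 0.64.

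The 2 probe sets lower in fresh TI than in cultured TII cells were those of Lcn2 and Scgb1a1. Lcn2 differed by -1.67 ± 0.52 (adjusted p = 0.0157), but fresh TI array 3, at 6.36, lay above cultured array 1, at 5.83. Without cultured array 3 the difference was -0.9 and the call ended (adjusted p = 0.0707), and without cultured array 1 it was -2.44. Scgb1a1 differed by -0.69 ± 0.14 (adjusted p = 0.00128) with no overlap. After quantile normalization this was -0.41 (adjusted p = 0.0144). Of the 9 airway secretory markers, 5 were called higher in fresh TI than in cultured TII cells and 0 lower, against 34.2% and 25.8% of all genes. Cyp4b1 led them at 3.91 ± 0.19, and Cyp2f4 stood at 0.32 ± 0.1. In the alternatives 3 to 6 of the list were called.

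**Figure D2:**
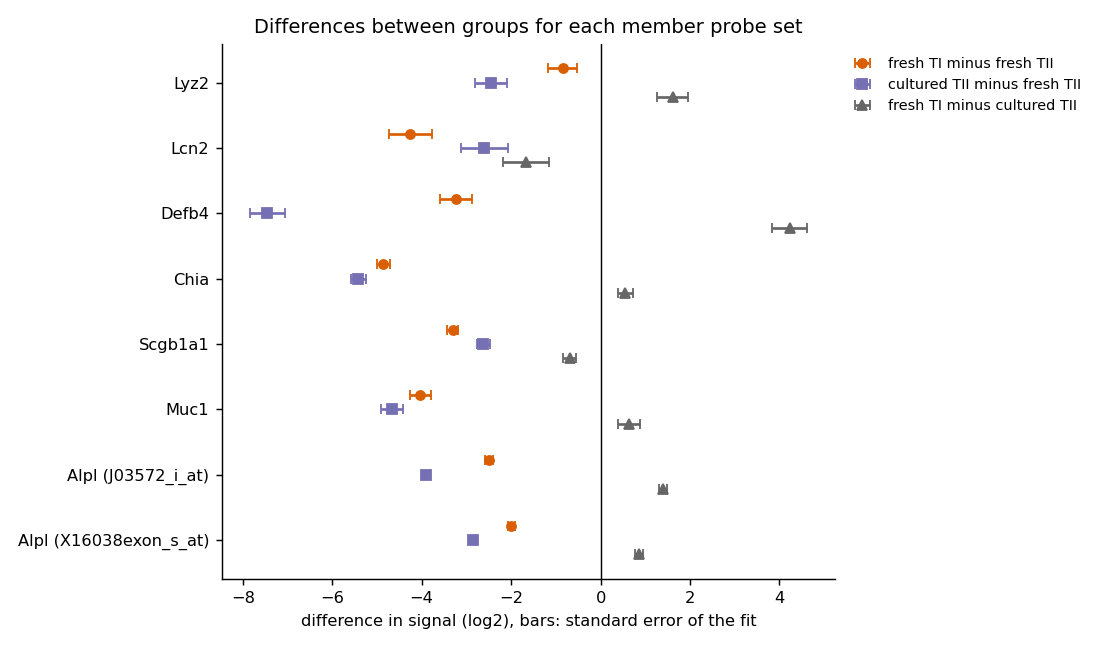
Differences in signal (log2) between groups for each probe set, with bars for the standard error of the fit. Against fresh TII cells all points lie below 0, while fresh TI minus cultured TII runs from -1.67 for Lcn2 to 4.23 for Defb4.

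Within the fresh TI group, array 4 had the lowest signal for 7 of the 8 probe sets, the other being Alpl on X16038exon_s_at. The deviation of array 4 from the group mean was -1.35 for Defb4, -1.24 for Lyz2, -0.56 for Lcn2 and -0.52 for Muc1, against -0.21 for Chia. The surfactant genes were also lowest there. Sftpa1, which encodes a surfactant collectin, stood at 8.61, 9.80, 10.02 and 7.41 on fresh TI arrays 1 to 4, and Sftpc at 11.94, 12.41, 12.51 and 10.73. The TII marker list as a whole averaged 8.56, 8.91, 8.96 and 8.16 on the same arrays. Some leukocyte genes were lowest on array 4 too. Lgals3, a galectin of macrophages and other cells, stood at 9.09, 9.53, 9.39 and 7.48 on the fresh TI arrays, and the leukocyte tetraspanin Cd53 at 5.14, 5.87, 5.67 and 4.37. Other macrophage markers were highest on array 4. Csf1r stood at 4.93, 4.61, 4.71 and 5.01, Itgam at 3.05, 3.04, 3.10 and 3.29, and Cd14 at 6.31, 6.49, 6.36 and 6.58. The macrophage list averaged 5.99, 6.05, 6.0 and 5.77 on these arrays and the neutrophil list 3.65, 3.75, 3.83 and 3.38. Defb4 and Lyz2 were thus low on the same fresh TI array as surfactant and some leukocyte genes, while Ptprc and Pdpn deviated there by 0.06 and 0.03. The part of TII cells, leukocytes or their RNA in the fresh TI signal was not tested.

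Within the cultured group, Lcn2 and Lyz2 were both lowest on array 1 and highest on array 3, whereas Defb4, Muc1 and Scgb1a1 were highest on array 1 and lowest on array 3. Several leukocyte genes were ordered like Lcn2, and others were not. Cd53 stood at 5.69, 6.47 and 7.63 on cultured arrays 1 to 3, against 4.61, 4.29, 5.29 and 4.47 on the fresh TII arrays. Lgals3 stood at 9.84, 10.95 and 11.14 on the cultured arrays, against 8.31, 8.29, 8.18 and 8.28 on the fresh TII arrays. By contrast Csf1r, at 4.67, 4.75 and 4.62, and the complement gene C1qb, at 5.92, 5.93 and 5.78, were lowest on cultured array 3. Ptprc hardly moved, at 5.33, 5.35 and 5.40 on cultured arrays 1 to 3. Of 10 measured macrophage markers, 4 were called higher in cultured than in fresh TII cells and 1 lower, against 20.5% and 14.0% of all genes. The lower one was Aif1, an actin-binding protein of macrophages, at -0.46 ± 0.08 (adjusted p = 0.000418), but its other probe sets were higher, by 1.19 ± 0.33 (adjusted p = 0.0139) and 1.26 ± 0.38 (adjusted p = 0.0217). Without probe sets averaging under the median, 1 of 6 was higher and 1 lower. The mean log2 signal of the 10 ran from 5.95 to 6.66 on cultured TII, from 5.77 to 6.05 on fresh TI and from 5.59 to 5.74 on fresh TII arrays. The pan-leukocyte gene Ptprc differed by -0.19 ± 0.09 (adjusted p = 0.119), and by 0.01 and -0.01 on its other probe sets, and the macrophage receptor Csf1r differed by 0.08 ± 0.1 (adjusted p = 0.599). The part of macrophages in the cultured Lcn2 and Lyz2 signal was not tested.

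Between fresh TI and fresh TII cells, 3 of these 10 macrophage markers were called higher and 1 lower, against 33.0% and 21.2% of all genes. Without fresh TI array 3, 5 were higher, and without fresh TI array 1 or fresh TII array 1, 0 were lower. Between fresh TI and cultured TII cells 3 were higher and 5 lower, against 34.2% and 25.8% of all genes, with 3 lower without cultured array 3. Of 5 measured neutrophil markers, limma called 4 higher in fresh TI than in fresh TII cells and 0 lower. The same 33.0% and 21.2% of all genes were called there. By the unadjusted p the 5 markers gave the same counts. They were dim, with a mean log2 signal of 3.38 to 3.83 on fresh TI and 2.97 to 3.11 on fresh TII arrays. After median centring or quantile normalization 3 of the 5 were called higher in fresh TI cells. Without probe sets averaging under the median none of the 5 was left. The calgranulin S100a9 differed by 1.77 ± 0.31 (adjusted p = 0.000467). Between cultured and fresh TII cells 0 of the 5 were called in either direction by limma, with 1 lower by the unadjusted p. Of all genes 20.5% were called higher there and 14.0% lower. The part of neutrophils in the Lcn2 signal was not tested.

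**Figure D3:**
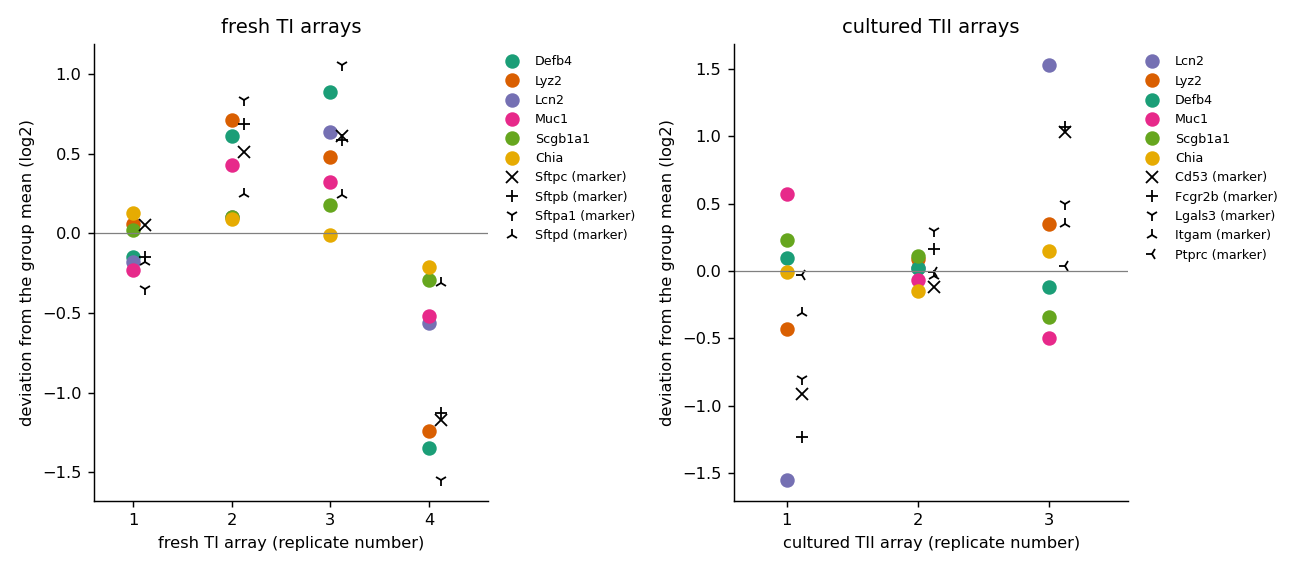
Deviation of each array from its group mean (log2) for 6 of the genes (coloured points) and for markers (black symbols), on the fresh TI arrays at the left and the cultured TII arrays at the right. The markers are surfactant genes at the left and leukocyte genes at the right. On fresh TI array 4, Defb4 (-1.35) and Lyz2 (-1.24) lie low beside the surfactant genes. On cultured array 3, Lcn2 lies high beside Cd53 and Fcgr2b, while Ptprc deviates by 0.04.

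Relatives of the 7 genes gave a low mean log2 signal on the fresh TII arrays, 4.52 to 4.57. A lower signal in other cells might thus not show. The list held relatives of lysozyme, other lipocalins, beta-defensins, chitinases, secretoglobins, mucins and alkaline phosphatases, of which 17 were measured. By limma 8 were called higher in fresh TI than in fresh TII cells and 0 lower (9 and 0 by the unadjusted p), against 33.0% and 21.2% of all genes. Their median difference was 0.28, where that of all genes was 0.11. The furthest was Ptgds, a lipocalin that makes prostaglandin D2, at 0.88 ± 0.12 (adjusted p = 7.45e-05). The defensin Defb1 stood at 0.34 ± 0.08 (adjusted p = 0.00313) but at 0.12 on its other probe set (adjusted p = 0.341), and the intestinal mucin Muc3 at 0.4 ± 0.07 (adjusted p = 0.000461). After quantile normalization 5 of the 17 were called higher. In cultured against fresh TII cells 20.5% of all genes were called higher and 14.0% lower. Of the relatives 2 were called higher and 0 lower by limma, with the same counts by the unadjusted p. These were Ptgds at 0.87 ± 0.13 and the lysosomal chitobiase Ctbs at 0.82 ± 0.24, and 1 was called without cultured array 2, cultured array 3 or fresh TII array 4. In fresh TI against cultured TII cells 8 were higher and 0 lower (10 and 1 by the unadjusted p), against 34.2% and 25.8% of all genes. That count was 13 higher and 1 lower without fresh TI array 2, and 6 higher and 1 lower without cultured array 1.

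Of other secreted defence proteins, 4 of 18 measured were higher and 5 lower in fresh TI against fresh TII cells, where 33.0% of all genes were higher and 21.2% lower. The phospholipase Pla2g1b stood at -4.29 ± 0.23, the collectin Sftpa1 at -3.21 ± 0.47 and complement C3 at -2.6 ± 0.13. By contrast Pla2g2a, a secreted phospholipase that attacks bacterial membranes, was higher in fresh TI cells by 3.35 ± 0.21 (adjusted p = 5.25e-08). Its signal was 8.04, 8.77, 7.82 and 7.41 on the fresh TI arrays, 4.29, 4.46 and 4.54 on the cultured TII arrays and 4.62, 4.66, 4.80 and 4.58 on the fresh TII arrays. In cultured against fresh TII cells 6 of the 18 were called lower and 1 higher, against 14.0% and 20.5% of all genes. Without cultured array 1 or fresh TII array 1, 2 were higher. The lower ones included Sftpa1 at -6.42 ± 0.51, Pla2g1b at -5.92 ± 0.25, the collectin Sftpd at -3.76 ± 0.26 and C3 at -2.91 ± 0.14. The higher one was galectin Lgals3, a sugar-binding protein also on the macrophage list, at 2.38 ± 0.42 (adjusted p = 0.000574). In fresh TI against cultured TII cells 9 of the 18 were called higher and 2 lower, against 34.2% and 25.8% of all genes. Pla2g2a at 3.58 ± 0.23 and Sftpa1 at 3.2 ± 0.51 led the higher ones.

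Of apical membrane proteins besides Muc1 and Alpl, 8 of 26 measured were higher and 10 lower in fresh TI against fresh TII cells, beside the same 33.0% and 21.2% of all genes, with 5 higher without fresh TI array 4 or fresh TII array 2. Their median difference was 0.02. The lower ones were led by the surface glycoprotein Cd24 at -3.38 ± 0.27 and the aminopeptidase Anpep at -2.82 ± 0.15 (-0.56 and -1.5 on its other probe sets). The higher ones were led by Pdpn at 4.48 ± 0.08 and the water channel Aqp5 at 4.3 ± 0.23. In cultured against fresh TII cells 12 were called lower and 5 higher, against 14.0% and 20.5% of all genes. The endocytic receptor Lrp2 stood at -2.48 ± 0.13, Cd24 at -2.14 ± 0.29 and Anpep at -1.89 ± 0.16 (-1.03 and -0.43 on its other probe sets), while Pdpn was higher by 3.69 ± 0.08. Set against cultured TII cells, fresh TI cells had 12 of the 26 higher and 5 lower, where 34.2% and 25.8% of all genes were. Among them were Aqp5 at 3.27 ± 0.25 and the adhesion molecule Epcam at -2.35 ± 0.14.

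**Figure D4:**
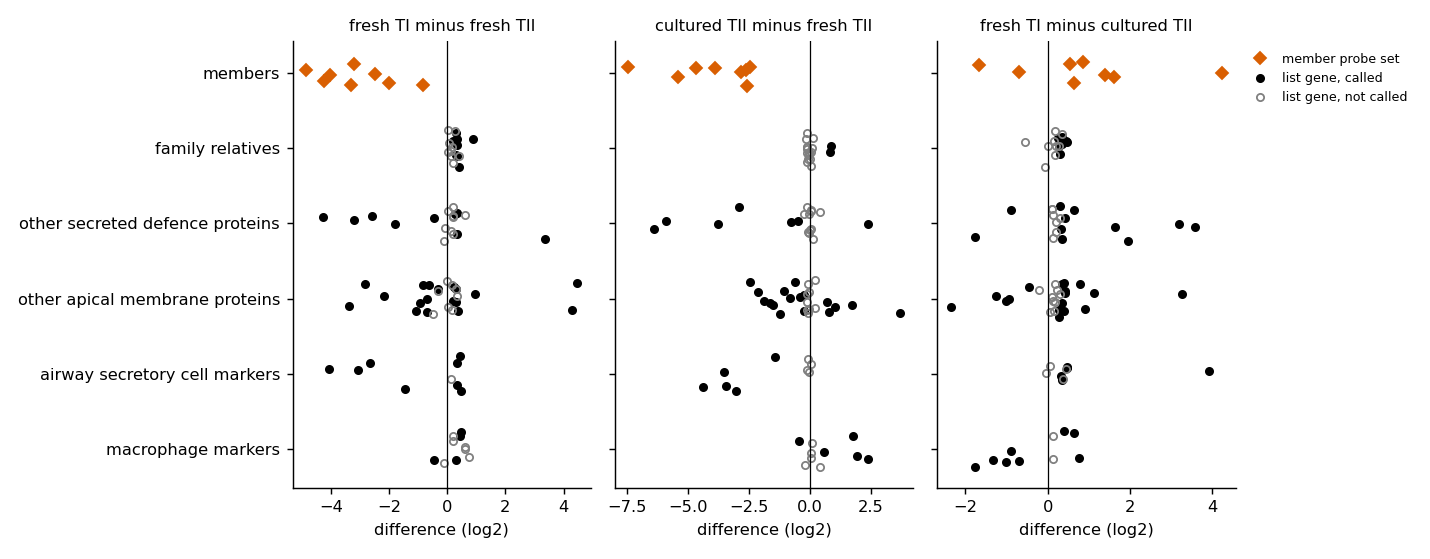
Differences (log2) of the 8 member probe sets (diamonds) and of the measured genes of 5 lists (circles, filled where called at an adjusted p under 0.05), with 1 panel per comparison and a separate horizontal scale for each. Points are spread vertically only to separate them. In fresh TI minus fresh TII the members lie between -4.86 and -0.85. None of the 17 relatives, dim on average in fresh TII cells, was called lower, against 21.2% of all genes.

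Factors for which motifs were searched, with other regulators of lung epithelial genes, were measured for 14 genes. In fresh TI against fresh TII cells 6 were called lower and 0 higher by limma (7 and 1 by the unadjusted p). Of all genes 21.2% were called lower and 33.0% higher. After quantile normalization, with the replicate number as a block or without fresh TI array 1, 5 to 7 of the 14 were lower and 1 higher. Cebpd, a C/EBP factor, stood at -1.36 ± 0.19 (-1.68 and 0.12 on its other probe sets), Cebpa at -0.88 ± 0.08 (0.08 on its other probe set), the NF-kB inhibitor Nfkbia at -1.06 ± 0.13 and the interferon regulatory factor Irf1 at -2.16 ± 0.16. In cultured against fresh TII cells 6 were lower and 1 higher, against 14.0% and 20.5% of all genes. The lung lineage factor Nkx2-1 stood at -1.22 ± 0.12 (-0.37 on its other probe set), Cebpa at -0.97 ± 0.09 (-0.01 on its other probe set), Nfkbia at -2.86 ± 0.14 and Irf1 at -2.47 ± 0.18. The higher one was Nfkb1, at 0.35 ± 0.11, whose call ended without cultured array 1, cultured array 3 or fresh TII array 1. In fresh TI against cultured TII cells 5 were higher and 3 lower, against 34.2% and 25.8% of all genes. Nfkbia stood at 1.8 ± 0.14 and Cebpd at -0.81 ± 0.2.

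The genes most like each member were found by the root mean square distance between log2 profiles over the 11 arrays, each centred on its own mean, so that a small distance means the same steps between arrays. Most of each profile is the difference between the 3 groups. Scgb1a1 lay nearest to the transcription factor gene Jun (0.16), the epoxide hydrolase Ephx1 (0.19) and the isoprenoid enzyme Idi1 (0.23). Alpl lay nearest to the immediate early genes Fos (0.18) and Nr4a1 (0.19) and to Cd74, the invariant chain of class II antigen presentation (0.2). Muc1 lay nearest to the neuropeptide gene Npw (0.3), the desaturase Scd (0.4) and Cyp2f4 (0.41). Lyz2 lay nearest to RT1-Bb, a class II antigen (0.41), Nfkbia (0.42) and the chemokine Cxcl2 (0.42). Defb4, whose own values deviate by 2.99 from their mean, lay nearest to the chemokine Cxcl3 (0.47), Sftpa1 (0.55) and Sftpb (0.59). Chia lay nearest to Bmp3 (0.49), Cyp2f4 (0.49) and Pla2g1b (0.56). The nearest to Lcn2 lay further off, namely the haem synthesis enzyme Alas1 (0.81), the fatty acid ligase Acsl4 (0.82) and Anpep (0.87).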

How the data were processed

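The authors deposited log2 values, 1 for each probe set on each array. That the base is 2 was judged by their range, 1.37 to 13.16, and the summarisation, background correction and normalization used before deposit are not given in the sources used here. Array medians lay between 5.43 and 5.51, and no further scaling was applied. Of 8799 probe sets, 59 controls were set aside, and 7006 of the others carried exactly 1 gene (4736 genes). In lists, each gene was represented by its brightest probe set on average.

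All 8740 probe sets of all 11 arrays entered 1 limma 3.58.1 fit in R 4.3.3 (lmFit with a mean per group, eBayes, two-sided), with Benjamini-Hochberg adjustment over the 8740 and calls at an adjusted p under 0.05. The code was tested on simulated data. The number of arrays limits the precision. Sequences were searched with Python 3.11.15, and figures drawn with matplotlib 3.10.9.

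The genes, the 9 lists, the motifs and the naming rule were chosen with earlier results of these data known. The rule named all member probe sets, up to 4 called genes per list and comparison with the greatest difference, and the 3 nearest genes per member. Csf1r and Nfkb1 fall outside it and were chosen after their values were seen, as were comparisons of a named gene beyond the one that named it. Deviations from group means correlated between -0.2 and 0.28 for 10 pairs of arrays with the same replicate number and between -0.27 and 0.23 for 30 other pairs. The arrays were therefore not treated as paired, though so few arrays a group cannot exclude that the numbers paired them.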

Additional observations from a re-analysis of the deposited data

How the results depend on the processing

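Values were recomputed with arrays centred on their medians, with quantile normalization, without probe sets averaging under the median, with an intensity trend, with fits on 2 groups, the replicate number as a block, averaging each list gene over its probe sets, and leaving out each of 11 arrays. No member difference reversed. Without probe sets under the median fewer were tested: 2671 were called for fresh TI minus fresh TII (4783 in all) and 2993 for fresh TI minus cultured TII (5235 in all), of which 50.1% and 45.9% were higher, against 62.6% and 59.7% of all calls, and 41 list genes were called in the second comparison (65 in all). No neutrophil gene was left there. Leaving out 1 array gave 3944 to 4986 called probe sets between fresh TI and fresh TII cells, with 7 to 8 of the 8 members past the threshold (a description, as the genes were chosen on this comparison), 2491 to 3212 between cultured and fresh TII cells, with all 8, and 4543 to 5468 between fresh TI and cultured TII cells, with 6 to 8. With the replicate block 4787, 2750 and 4754 probe sets were called in the same order of comparisons, and all 8 members in each comparison. Without detection calls, folds of dim probe sets cannot be bounded.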
